A study of Mus musculus with 4 samples.

Results

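H3K4me3 and H3K9me3 were compared in macrophages of Sun-/- mice through the 45874 peaks called in 2 chromatin immunoprecipitation libraries, 28505 for H3K4me3 and 17369 for H3K9me3. The members were all peaks of these 2 libraries, out of 96551 peaks in the 4 libraries of the series, and every protein-coding gene was then placed by the marks it carried. The cells were peritoneal macrophages drawn out by thioglycollate broth from C57BL/6 mice of 8 weeks and kept in dishes in DMEM with 10% FBS, and both libraries had the genotype Sun-/-. The labels did not say which Sun gene was deleted, whether animals were pooled or how long the cells were cultured. The antibodies were abcam ab8580 for H3K4me3 and ab8898 for H3K9me3. Each mark had 1 library and no input library entered the peak calling, so no difference between the marks was tested, and the 95% Clopper-Pearson intervals given below cover counting error only.

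H3K4me3, trimethylation of lysine 4 of histone H3, is placed by SET1 and MLL enzymes at the starts of active and poised genes, most of all at CpG-rich promoters. H3K9me3, trimethylation of lysine 9, is placed by SUV39H and SETDB1 enzymes, is read by HP1 proteins, and is known for heterochromatin, silent repeats, zinc finger gene clusters and germline genes kept silent in somatic cells. In macrophages both marks have been studied at inflammatory genes. In a bulk library a region with both marks may hold them on the same nucleosome, on the 2 alleles or in different cells, and fewer marked cells and less mark per cell cannot be told apart.

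The 6 sequences below are examples of promoters of genes with and without the marks, picked after their values were seen, and need not be typical of their classes. Each is the 200 bases before the gene start, 5′ to 3′ on the strand of the gene, from RefSeq (GRCm38.p6, the assembly of mm10), with every CG in capitals. Irf8 (chr8:120736158-120736357, plus strand), a transcription factor of the macrophage lineage, had H3K4me3 only, and Cebpb (chr2:167688715-167688914, plus strand), a factor of inflammatory transcription, had both marks in overlapping peaks. Dazl (chr17:50293621-50293820, minus strand), an RNA-binding protein of germ cells, and Tex12 (chr9:50561269-50561468, minus strand), a protein of the synaptonemal complex, lay wholly under both an H3K4me3 and an H3K9me3 peak. Sycp1 (chr3:102936101-102936300, minus strand), another protein of that complex, had H3K9me3 and no H3K4me3, and Alb (chr5:90460670-90460869, plus strand), the liver's serum albumin, had neither.
Irf8: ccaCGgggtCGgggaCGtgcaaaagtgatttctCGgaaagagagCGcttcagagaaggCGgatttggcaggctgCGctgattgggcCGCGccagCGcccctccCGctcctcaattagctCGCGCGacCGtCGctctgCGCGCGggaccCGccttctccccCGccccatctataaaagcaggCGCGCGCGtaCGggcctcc
Cebpb: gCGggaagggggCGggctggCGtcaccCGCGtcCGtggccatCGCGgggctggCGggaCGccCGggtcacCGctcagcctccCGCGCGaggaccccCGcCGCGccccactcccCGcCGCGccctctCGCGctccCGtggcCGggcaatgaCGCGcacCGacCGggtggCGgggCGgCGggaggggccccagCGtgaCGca
Dazl: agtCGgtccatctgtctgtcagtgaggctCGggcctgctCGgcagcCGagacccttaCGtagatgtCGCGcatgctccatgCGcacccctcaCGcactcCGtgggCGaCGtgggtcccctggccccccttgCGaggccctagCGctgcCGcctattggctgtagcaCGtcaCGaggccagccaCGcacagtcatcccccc
Tex12: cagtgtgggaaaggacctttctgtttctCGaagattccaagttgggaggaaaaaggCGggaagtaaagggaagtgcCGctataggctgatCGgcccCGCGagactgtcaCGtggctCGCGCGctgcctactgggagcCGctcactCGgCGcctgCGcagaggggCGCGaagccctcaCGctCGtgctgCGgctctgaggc
Sycp1: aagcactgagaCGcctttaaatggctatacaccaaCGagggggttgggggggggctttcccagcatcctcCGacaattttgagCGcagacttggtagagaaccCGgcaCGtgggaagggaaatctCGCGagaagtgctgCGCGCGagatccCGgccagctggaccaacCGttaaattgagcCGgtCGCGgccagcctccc
Alb: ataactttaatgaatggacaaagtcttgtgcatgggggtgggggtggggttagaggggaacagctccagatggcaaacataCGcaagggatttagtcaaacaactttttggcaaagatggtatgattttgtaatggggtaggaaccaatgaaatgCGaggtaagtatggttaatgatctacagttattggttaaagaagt

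The printed bases held 26 CG at Irf8, 34 at Cebpb, 18 at Dazl, 19 at Tex12, 16 at Sycp1 and 2 at Alb. These 5 promoters of marked genes were thus rich in CG, and that of the unmarked gene was poor. Sycp1 was not typical of genes with H3K9me3 only. Over 300 bases around the start its ratio of observed to expected CG was 0.874, against a median of 0.244 in that class. All 200 bases lay under H3K4me3 peaks at Irf8, Cebpb, Dazl and Tex12. H3K9me3 peaks covered 200 of them at Dazl and at Tex12, 50 at Sycp1 and 0 at Irf8. At Cebpb they covered 0 as well, because its H3K9me3 peak lay over the gene itself.

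The libraries held 26748289 tags for H3K4me3 and 28586946 for H3K9me3 after the removal of duplicate positions. Peaks took 14.04% of the H3K4me3 tags and 1.62% of the H3K9me3 tags. An H3K4me3 peak had a median of 79 tags over 1006 bp, and an H3K9me3 peak had 17 tags over 258 bp. In all the H3K4me3 peaks covered 35.5 Mb and the H3K9me3 peaks 5.56 Mb. Peaks were called against a background taken from up to 10000 bp around them, and the effect of this on broad domains was not tested.

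Many H3K9me3 peaks lay on an H3K4me3 peak. Of the 17369 H3K9me3 peaks, 5855 overlapped an H3K4me3 peak by 1 bp or more, which is 33.7% (interval 33.0 to 34.4%). Of the 28505 H3K4me3 peaks, 5365 overlapped an H3K9me3 peak, which is 18.8% (interval 18.4 to 19.3%). The 5859 pairs shared 2.29 Mb, or 41.2% of the H3K9me3 peak length and 6.46% of the H3K4me3 peak length. In 90.1% of the pairs the H3K9me3 peak lay wholly inside the H3K4me3 peak, and the summits were a median of 89 bp apart. The shared share was 34.1% on the autosomes, between 29.1% on chromosome 14 and 42.6% on chromosome 11. It was 16.8% on the X chromosome (60 of 357 peaks, interval 13.1 to 21.1%).

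H3K9me3 peaks thinned out sharply outside H3K4me3 peaks. Inside H3K4me3 peaks there were 163 H3K9me3 peaks per Mb, counted by their centres. At 1 to 1000 bp from an H3K4me3 peak there were 7.41 per Mb, and beyond 100000 bp there were 2.89 per Mb. The flank of an H3K4me3 peak was thus far poorer in H3K9me3 peaks than its body.

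The share of H3K9me3 peaks that overlapped H3K4me3 was higher in each higher bin of score, and for H3K4me3 peaks the share was higher in the upper bins. The score is −10 times the log10 of the peak caller's p-value. Of H3K9me3 peaks with a score from 50 to below 60, 20.8% overlapped H3K4me3, and this share was 62.6% from 100 to below 200 and 88.7% from 200 to below 400. Of the 168 H3K9me3 peaks with a score of 400 or more, 167 overlapped. The exception was a peak of 90 tags and score 748 at chr5:114922422-114922625, beside the start of Oasl1, a gene of the interferon response whose own H3K4me3 peak of 239 tags lay next to it without touching. Of H3K4me3 peaks, 12.4% overlapped below a score of 100, 15.1% from 100 to below 200 and 13.9% from 200 to below 400. The share was 27.3% from 400 to below 800 and 61.1% at 800 or more.

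**Figure D1:**
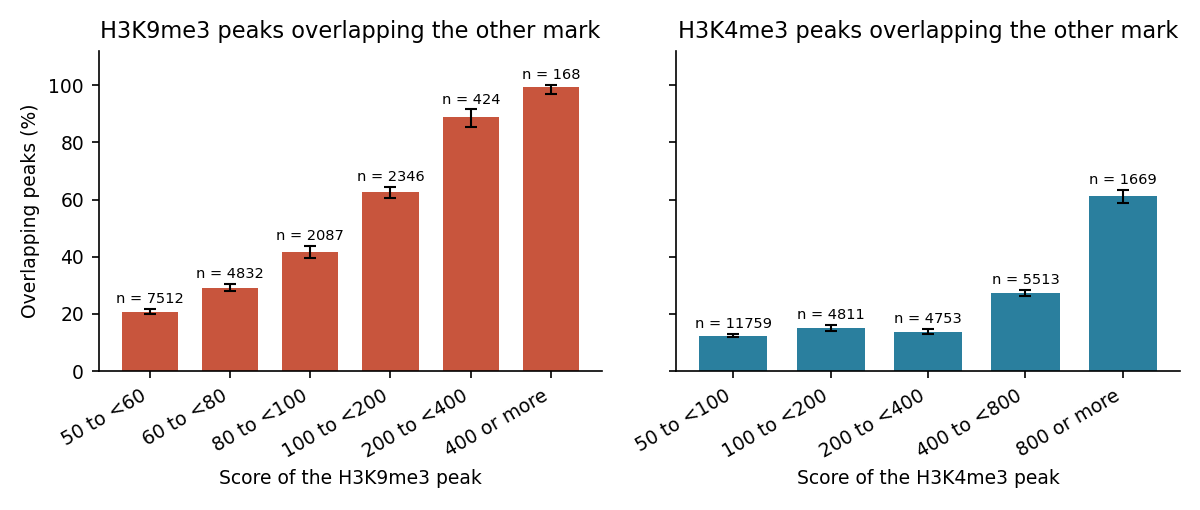
Share of peaks that overlap a peak of the other mark by 1 bp or more (vertical axis, percent) by the score of the peak (horizontal axis), for H3K9me3 peaks on the left and H3K4me3 peaks on the right. Bars are shares, error bars are exact 95% binomial intervals and n is the number of peaks in the bin; the H3K9me3 share goes from 20.8% to 99.4% and the H3K4me3 share stays between 12.4% and 15.1% in the lower 3 bins and reaches 61.1% in the last.

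Overlapping and lone H3K9me3 peaks lay in different places. Of the overlapping H3K9me3 peaks, 3171 (54.2%) were within 1000 bp of a protein-coding gene start, 1250 inside such a gene, 328 in another annotated gene and 1106 outside genes. Of the 11514 H3K9me3 peaks without H3K4me3, 242 (2.10%) were at a gene start and 6193 (53.8%) outside genes. Read the other way, 92.9% of the H3K9me3 peaks at gene starts lay on H3K4me3, against 15.2% of those outside genes. The overlapping H3K9me3 peaks had a median of 24 tags over 322 bp, and the lone ones 16 tags over 242 bp. The H3K4me3 peaks with H3K9me3 had a median of 172 tags over 1321 bp, and those without it 71 tags over 955 bp.

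The overlapping pairs were of more than 1 kind. For each pair the density of a mark was taken as the tags of its peak per kb and per 1000000 tags of its library. Each density is over the width of its own peak, so the densities of a pair are not over the same bases. The antibody and the share of tags in peaks differed between the marks, so equal densities do not mean equal amounts of mark. In the 3172 pairs at gene starts the median density was 5.80 for H3K4me3 and 2.46 for H3K9me3, and the median of the ratio of H3K9me3 to H3K4me3 was 0.426. In the 2687 pairs elsewhere the medians were 2.10 and 2.64, and the median ratio was 1.34. A ratio of 1 or more was found in 174 pairs at gene starts (5.49%) and in 2047 pairs elsewhere (76.2%). Counted as tags per peak, without the division by width, the median ratio was below 1 in both places, at 0.0770 and 0.668, because the H3K4me3 peaks were wider.

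At gene starts the density of H3K9me3 hardly moved with that of H3K4me3. The middle 90% of H3K9me3 densities there spanned 2.12 to 3.12 while the H3K4me3 densities spanned 2.59 to 8.55, and across the 3172 pairs Pearson's r of the log2 densities was -0.06 and Spearman's rho -0.02. Across the 2687 pairs elsewhere r was 0.35 and rho 0.25. The pairs of a library share its depth and its peak threshold, which sets a floor under the density, and these correlations are descriptions.

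**Figure D2:**
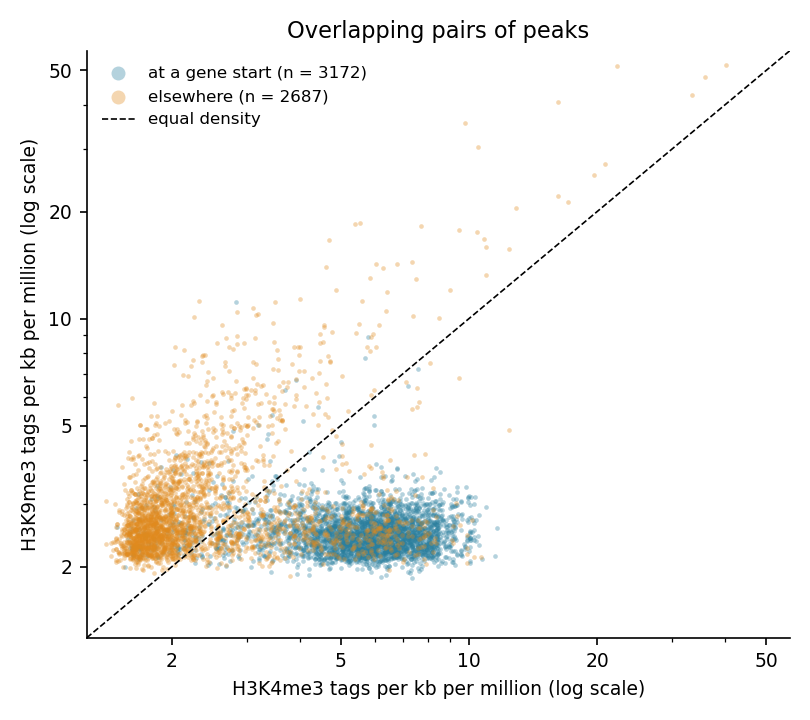
Tags per kb and per 1000000 library tags of H3K4me3 (horizontal) and of H3K9me3 (vertical) in each of the 5859 overlapping pairs of peaks, both on log scales; blue points are the 3172 pairs at a protein-coding gene start, orange points the 2687 pairs elsewhere, and the dashed line marks equal density. Pairs at gene starts form a flat cloud below the line, with a median ratio of 0.426, and most pairs elsewhere lie above it, with a median ratio of 1.34.

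The strongest H3K9me3 peaks mostly lay away from gene starts, and the leading ones had many tags of both marks. Of the 167 overlapping H3K9me3 peaks that scored 400 or higher, 10 were at a protein-coding gene start, 68 inside such a gene, 23 in another gene and 66 outside genes. The pair with the most tags lay outside genes at chr14:19415680-19419743, with 4959 H3K9me3 tags and 3982 H3K4me3 tags. A pair at chr17:13550398-13553328, in the long non-coding RNA gene 2700054A10Rik, had 2279 and 1638 tags, and one at chr2:98666211-98667413, outside genes, had 1775 and 1684. A pair inside Chl1, a neural cell adhesion gene, at chr6:103649036-103649317, had 287 H3K9me3 tags and 238 H3K4me3 tags. The ratio of densities at these 4 places was 1.28, 1.30, 1.28 and 3.63. How reads that map to several places were treated is not given in the sources used here, and whether such places would stand out without an antibody was not tested. Without the H3K9me3 peaks of score 400 or more, 33.1% of H3K9me3 peaks overlapped H3K4me3.

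Around gene starts the summits of both marks lay downstream. For the 14730 genes with 1 start, the bin from 100 to 200 bp downstream held the most summits of either mark, 2461 for H3K4me3 and 335 for H3K9me3. Within 1000 bp, 79.96% of the H3K4me3 summits and 83.5% of the H3K9me3 summits were downstream, with median positions of 193 and 263 bp. H3K4me3 had a second, lower rise upstream, with 316 summits from 300 to 200 bp upstream against 225 in the last 100 bp before the start. The H3K9me3 summits had no such rise, with 47 and 79 in these bins.

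**Figure D3:**
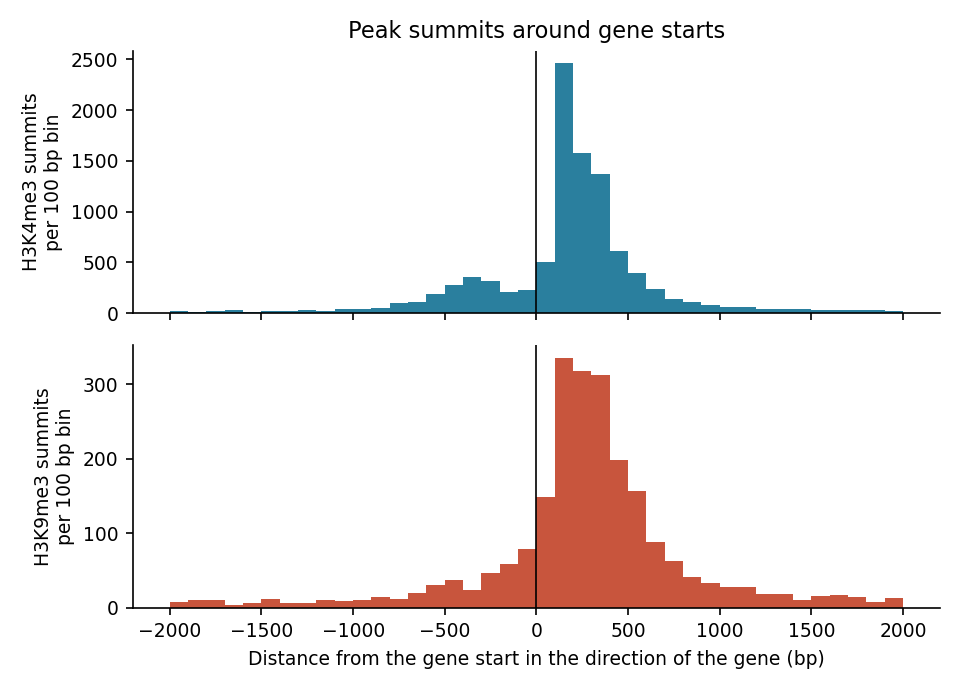
Number of peak summits per bin of 100 bp (vertical axis) by distance from the gene start in the direction of the gene (horizontal axis, bp), for H3K4me3 above and H3K9me3 below, over the 14730 genes with 1 start; the vertical scales differ. Both marks have their highest bin at 100 to 200 bp downstream, with 2461 and 335 summits.

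Of 21883 protein-coding genes, 8695 had H3K4me3 at the start and no H3K9me3, which is 39.7%. Both marks were found at 5252 genes. In 3281 of these (15.0%) the H3K4me3 peak at the start overlapped an H3K9me3 peak, and in 1971 (9.01%) the H3K9me3 peak stood apart from it, elsewhere in the gene or within 1000 bp of it. H3K9me3 without H3K4me3 at the start was found at 933 genes (4.26%), 450 of which had an H3K4me3 peak elsewhere in the gene. Neither mark was found at 7003 genes (32.0%). Thus 37.7% of the 13947 genes with H3K4me3 at the start had H3K9me3, against 11.8% of the 7936 genes without it (intervals 36.9 to 38.5% and 11.1 to 12.5%).

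H3K9me3 was found more often at genes with a strong H3K4me3 peak and at long genes. Of genes with 17 to 109 H3K4me3 tags at the start, 7.18% had overlapping marks, and of genes with 293 or more, 47.0%. Separate marks went the other way, at 18.1% and 12.1%. The median length was 17.8 kb with H3K4me3 only, 32.2 kb with overlapping marks, 65.6 kb with separate marks, 40.4 kb with H3K9me3 only and 6.14 kb with neither. Of the 5471 longest genes 21.9% had separate marks, and of the 5472 shortest 0.731%. A longer gene offers more room for a peak, and the part of length in these counts was not tested.

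The promoters of the classes differed in CG content. Over 300 bases around the start, the median ratio of observed to expected CG was 0.746 in the 7048 genes with H3K4me3 only and a promoter in RefSeq's table, and 0.821 in the 2634 with overlapping marks. It was 0.720 with separate marks, 0.244 with H3K9me3 only and 0.173 with neither. The GC box, GGGCGG on either strand, was found in 74.1% of promoters with overlapping marks, 63.5% with H3K4me3 only, 18.6% with H3K9me3 only and 46.3% of all 17491 promoters. The TATA box, TATAAA on either strand, was found in 6.15%, 7.17%, 17.01% and 13.3% of the same groups. Thus genes with overlapping marks had promoters like those with H3K4me3 only, or richer in CG, and genes with H3K9me3 only were closer to unmarked genes. Sycp1, printed above, was among the 74 of 682 genes with H3K9me3 only (10.9%) whose ratio was 0.6 or more.

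**Figure D4:**
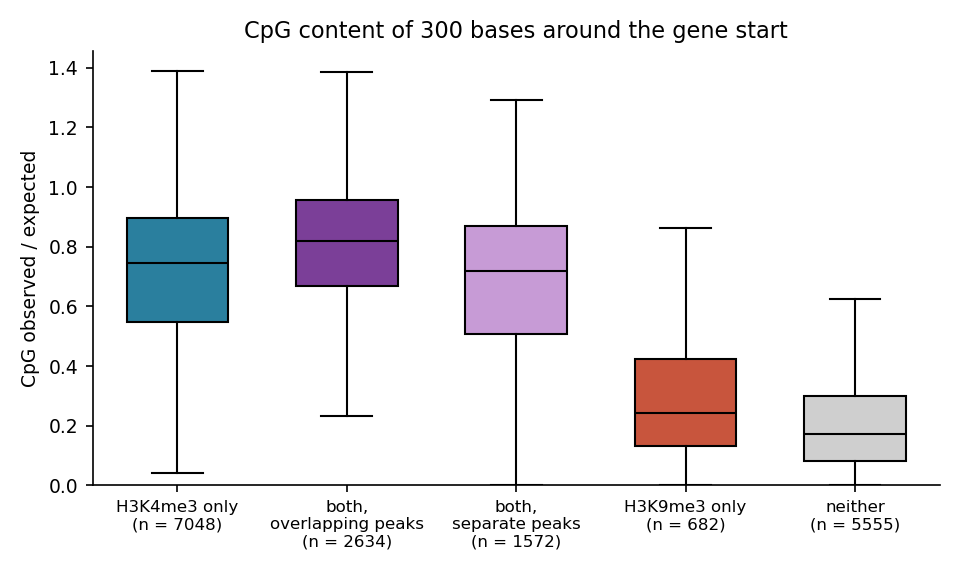
Ratio of observed to expected CG over 300 bases around the start (vertical axis) for the 5 classes of gene (horizontal axis, with the number of genes). Lines are medians, boxes quartiles, and whiskers reach the last gene within 1.5 box lengths; medians are 0.746, 0.821, 0.720, 0.244 and 0.173 from left to right.

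Most macrophage identity genes, like most protein-coding genes, had H3K4me3 at the start, with or without H3K9me3. Of 40 macrophage identity genes, 30 had H3K4me3 at the start, against 13947 of all 21883 genes. Of these 30, 17 had no H3K9me3, 6 had overlapping and 7 had separate marks. The shares with H3K4me3 only (42.5%) and with overlapping marks (15.0%) were at those of all genes, 39.7% and 15.0%, and separate marks were at 17.5%, against 9.01%. Irf8 had 637 H3K4me3 tags and Spi1, which encodes the lineage factor PU.1, 503, each with no H3K9me3. Overlapping marks were found at Apoe, the lipid carrier, with 376 H3K4me3 and 64 H3K9me3 tags, at Gata6, the factor of resident peritoneal macrophages, with 443 and 64, and at Cebpb with 527 and 28. Csf1r, the receptor for M-CSF, had 515 H3K4me3 tags at its start and 15 H3K9me3 tags elsewhere, and Runx1 393 and 124. Each of these genes had fewer H3K9me3 than H3K4me3 tags. H3K4me3 was also at the start of some markers of other cells of the peritoneum. These were 7 of 20 T and NK cell, 5 of 14 B cell and 3 of 10 dendritic cell genes. The others were 3 of 15 neutrophil, 1 of 15 eosinophil and mast cell and 7 of 18 mesothelial and fibroblast genes. Each of these shares was below that of all genes, 13947 of 21883.

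Genes of innate immunity mostly had H3K4me3 only. Of 42 pattern recognition genes 30 had H3K4me3 only and 3 had overlapping marks, and of 34 interferon response genes 21 and 3. H3K4me3 only was thus at 71.4% and 61.8%, against 39.7% of all genes, and overlapping marks at 7.14% and 8.82%, against 15.0%. Myd88, the adaptor of Toll-like receptors, had 292 H3K4me3 tags, Irf1 737 and Irf7 429, with no H3K9me3. Of 36 inflammatory genes 19 had H3K4me3 only (52.8%), 5 overlapping (13.9%) and 4 separate marks (11.1%), the last 2 shares near the 15.0% and 9.01% of all genes. Among these, Nfkbia, the inhibitor of NF-κB, had 300 H3K4me3 and 33 H3K9me3 tags, Icam1, an adhesion molecule, 482 and 20, and Cxcl1, a neutrophil chemokine, 86 and 33. Nos2, the inducible nitric oxide synthase, had no H3K4me3 at its start, an H3K4me3 peak of 107 tags elsewhere in the gene and an H3K9me3 peak of 23 tags. Il18, an inflammasome cytokine, had 31 H3K4me3 tags at its start, and its separate H3K9me3 peak of 96 tags was the peak at the start of Tex12, which lies within the span of Il18.

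Genes for basic cell functions mostly had H3K4me3 only, which was found at 39.7% of all genes. Of 67 histone genes, 64 had H3K4me3 only and 1 had overlapping marks, which was H1f10, a linker histone, with 441 and 34 tags. Of 37 genes of respiratory complex I, 34 had H3K4me3 only (91.9%), and of 75 mitochondrial ribosomal protein genes 62 (82.7%). Of 83 cytoplasmic ribosomal protein genes 65 had H3K4me3 only and 11 overlapping marks (13.3%), such as Rpl10a with 516 H3K4me3 and 30 H3K9me3 tags. Of 30 housekeeping genes 20 had H3K4me3 only and 7 overlapping marks (23.3%, above the 15.0% of all genes). With scores of 100 or higher for both marks, 1 of the 30 had overlapping marks (3.33%), below the 4.45% of all genes. Gapdh, a glycolytic enzyme from that list, had 420 H3K4me3 tags and no H3K9me3. The histone genes had a median length of 0.496 kb, and the part of length in their low share of H3K9me3 was not tested.

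At several germline genes with overlapping marks the ratio of H3K9me3 to H3K4me3 density was 1 or more. Of 48 germline and meiosis genes, 8 had H3K4me3 only, 8 overlapping marks, 4 separate marks, 11 H3K9me3 only and 17 neither. The share with overlapping marks, 16.7%, was near the 15.0% of all genes, and the share with H3K9me3 only was 22.9%, against 4.26%. H3K9me3 was thus found at 23 of 48, against 28.3% of all genes. With scores of 100 or higher for both marks, 6 of 48 had overlapping marks (12.5%), against 4.45% of all genes. The genes with H3K9me3 only fell from 11 to 2 of 48 at that setting, against 1.34% of all genes. At Dazl the H3K4me3 peak (chr17:50292388-50293926) had 144 tags and the H3K9me3 peak (chr17:50292704-50293880) 121, and their densities had a ratio of 1.03. At Tex12 there were 87 H3K4me3 and 96 H3K9me3 tags, and at Ddx4, the germ cell RNA helicase VASA, 53 and 86, with ratios of 1.17 and 1.68. Meioc, a factor of meiotic prophase, had 71 H3K4me3 tags and 40 H3K9me3 tags in the stronger of its H3K9me3 peaks, with a ratio of 1.13.

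Over the 8 germline genes with overlapping marks, the medians were 90 H3K4me3 and 38.5 H3K9me3 tags and the median ratio of densities was 1.04, with 5 of 8 at 1 or more. Over all 3281 genes with overlapping marks, the medians were 288 and 22 tags and the ratio 0.433, with 5.73% at 1 or more. The germline starts therefore had less H3K4me3 and more H3K9me3 than the whole class, a description of 8 genes. Some germline genes had H3K9me3 and no H3K4me3 peak in the gene. Among them were Sycp1 with 51 H3K9me3 tags and Sycp2, also of the synaptonemal complex, with 58, and Tdrd1 and Tdrd9, which act in the piRNA pathway, with 65 and 62. Prdm9, the methyltransferase that places meiotic recombination, had 106 H3K4me3 tags at its start and a separate H3K9me3 peak of 97.

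Imprinted genes, which are expressed from 1 parental allele, had the most overlap among the 22 lists of named genes. Of 47, 20 had overlapping marks (42.6%), 6 separate marks, 10 H3K4me3 only, 3 H3K9me3 only and 8 neither. The 20 include Nckap1, with 335 and 65 tags and a ratio of 0.375, which is not known as an imprinted gene. The counts, shares and median ratio of this list therefore include a gene that does not belong to it. Grb10, a growth factor receptor adaptor, had 50 H3K4me3 and 62 H3K9me3 tags with a ratio of 1.59, and Nap1l5 24 and 26 with 1.404. Peg3 and Usp29, which share a start region, had 48 and 18 with 1.28. Mest had 103 and 34, Cdkn1c, a cell cycle inhibitor, 338 and 120, and Igf2r, the receptor that clears IGF2, 223 and 74. At the lower end Gnas had 832 and 27 tags and Ube3a 373 and 14, with ratios of 0.419 and 0.319. The median ratio over the 20 genes was 0.717, between those of the germline genes and of all genes. With peaks of score 100 or more in both lists, 8 of the 47 had overlapping marks (17.02%), against 4.45% of all genes. The imprinted list no longer led at that setting, since the genes of H3K4 and of H3K9 methylation stood at 20% and 19.2%. Nnat, a neuronatin expressed from the paternal allele, had 88 H3K9me3 tags in 2 peaks and no H3K4me3.

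Developmental genes had overlapping marks at a higher share than the 15.0% of all genes. Of 39 Hox genes, the regulators of body axis identity, 17 had overlapping marks (43.6%), 4 separate marks and 13 H3K4me3 only. Hoxa10 had 242 H3K4me3 and 53 H3K9me3 tags with a ratio of 1.18, Hoxa11 187 and 51 with 1.01, and Hoxd10 and Hoxd11 shared a pair of 162 and 91 with 0.997. Hoxb4, a factor of blood stem cells, had 391 and 13 with a ratio of 0.442. With peaks of score 100 or more in both lists, 6 of the 39 had overlapping marks (15.4%), against 4.45% of all genes. Neighbouring Hox genes share peaks, so these counts are not of independent regions. Of 40 other developmental transcription factors 11 had overlapping marks (27.5%), such as Lhx2 with a pair of 377 H3K4me3 and 87 H3K9me3 tags, and Pou3f1 with 700 and 110. Over these 11 the median ratio was 0.861. With scores of 100 or higher for both marks, 3 of the 40 had overlapping marks (7.5%).

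**Figure D5:**
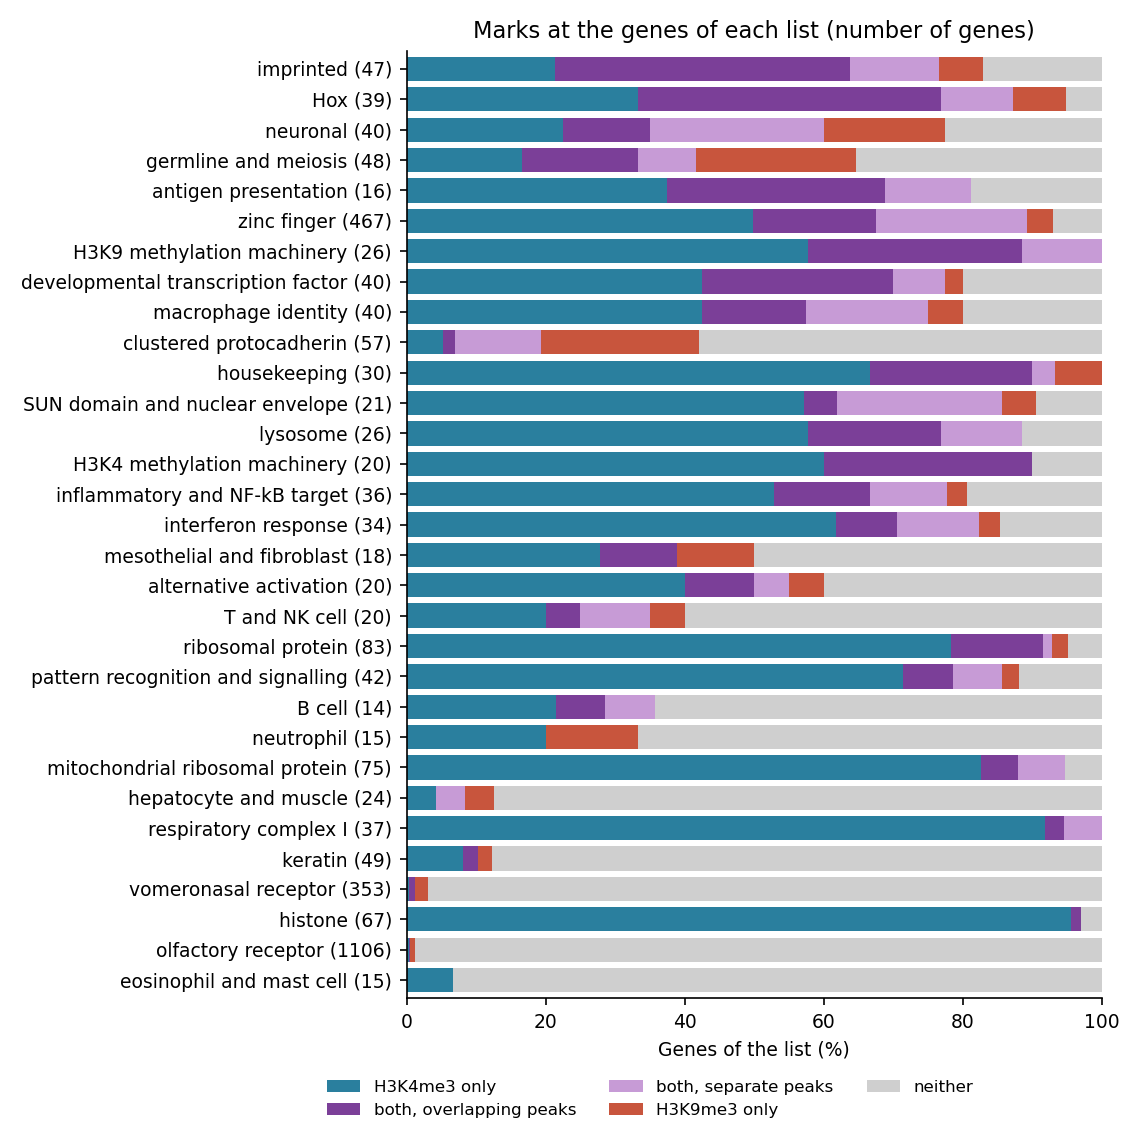
Share of the genes of each list (horizontal axis, percent, with the number of genes in parentheses) in the 5 classes of marks, for the 31 lists of 14 or more genes, ordered by the share with any H3K9me3. Imprinted and Hox genes have the widest bars of overlapping marks, at 42.6% and 43.6%, and histone genes and complex I genes are almost wholly H3K4me3 only.

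Zinc finger genes, many of which encode repressors of transposons, often carried separate marks. Of 467, 233 had H3K4me3 only, 102 separate marks (21.8%, against 9.01% of all genes), 82 overlapping marks and 17 H3K9me3 only. With peaks of score 100 or more in both lists, 21 had separate marks (4.50%), against 2.14% of all genes. In the genes with separate marks, 54 of 113 H3K9me3 peaks lay in the last of 3 equal parts of the gene (47.8%, interval 38.3 to 57.4%), against 36.1% of the 2311 such peaks in other genes (interval 34.2 to 38.1%). The 64 H3K9me3 peaks of zinc finger genes with H3K9me3 only lay the other way. Of them 46.9% lay in the first part and 31.3% in the last, against 32.8% and 37.8% in other genes of that class. Among these 17 genes, Zfp993 had 39 H3K9me3 peaks, and Zfp600 and Zfp979, also on chromosome 4, had 7 and 5. These 2 shares thus rest mostly on 1 region of chromosome 4, and its peaks are not independent. In zinc finger genes with overlapping marks 64.3% of the H3K9me3 peaks lay in the first part, against 77.5% in other genes. The zinc finger array of these genes is usually encoded by the last exon, and exons were not used here.

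The most H3K9me3 peaks in 1 gene were 39 in Zfp993 and 36 in Zfp978, neighbours on chromosome 4. These genes span 478623 and 267146 bp. Zfp991 lies within the span of Zfp978, so the same peaks can be counted for more than 1 gene. Zfp993 had 1435 H3K9me3 tags and no H3K4me3 at its start. Zfp978, whose start is not in RefSeq's promoter table, had 2124 H3K9me3 tags. At 1 of its ends an H3K4me3 peak of 149 tags held an H3K9me3 peak of 89 tags inside it. Of windows of 1 Mb, the one from 147000001 on chromosome 4 held the most H3K9me3 peaks, 96, of which 38 overlapped 1 of its 45 H3K4me3 peaks, and the one before it held 78. The median over the 2534 windows with any was 6. A window on chromosome 1 from 85000001, with the Sp110, Sp140 and Sp100 genes of nuclear bodies, held 65, of which 16 overlapped H3K4me3.

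Sensory receptor genes were almost free of both marks. Of 1106 olfactory receptor genes 1093 had neither, and of 353 vomeronasal receptor genes 342 had neither. Among the exceptions, Vmn2r4 had 36 H3K4me3 and 41 H3K9me3 tags, with a ratio of 3.92, the highest over the 3281 genes with overlapping marks. Its H3K9me3 peak (chr3:64414384-64414512) was much narrower than its H3K4me3 peak (chr3:64414292-64414766), and the ratio includes this difference of width. Vmn2r2 had 53 and 118 tags, with a ratio of 1.69, and Vmn2r29 126 and 76, with 0.825. These genes belong to families of near copies, between which reads can be misplaced.

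Clustered protocadherins, cell adhesion proteins of neurons, had H3K9me3 in the gene at 21 of 57 and H3K4me3 at the start at 11. These are unlike measures, since the whole gene is counted for H3K9me3 and the start alone for H3K4me3. Of 57, 13 had H3K9me3 without H3K4me3 at the start, 7 separate marks, 3 H3K4me3 only, 1 overlapping marks and 33 neither. H3K9me3 only was thus at 22.8%, against 4.26% of all genes, and separate marks at 12.3%, against 9.01%. Pcdhga2 and Pcdhga3 had 504 H3K9me3 tags in the same 11 peaks, since genes of the gamma cluster overlap, so these counts of genes repeat peaks. None of these peaks was at the start of either gene, and each gene also held 12 H3K4me3 peaks. The cluster also had an H3K4me3 peak of 328 tags, at the start of Pcdhgc3, which had no H3K9me3 peak of its own. Of 40 neuronal genes 10 had separate marks (25%, against 9.01% of all genes) and 7 H3K9me3 only (17.5%, against 4.26%). With scores of 100 or higher for both marks these were 3 and 0. Long genes of this list had several weak peaks, such as 9 in Ptprd, a receptor phosphatase, with 136 H3K9me3 tags, and 6 in Csmd1 with 90.

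The 20 overlapping pairs at gene starts with the highest H3K9me3 scores were a mixed group. In 11 of them the density of H3K9me3 was at least that of H3K4me3, and in 8 the H3K9me3 peak had more tags. The first was at Asmt, the last enzyme of melatonin synthesis, on the X chromosome, with 276 H3K4me3 and 262 H3K9me3 tags. Klf14, an imprinted Krüppel-like factor that was not in the list above, had 220 and 125 with a ratio of 1.0023. Fcgr3, an Fc receptor for IgG on macrophages, had the most H3K4me3 tags of the 20, 1253, with 703 H3K9me3 tags over chr1:171063608-171067021. The lowest ratio, 0.342, was at Cdk13, a kinase of RNA polymerase II, with 789 H3K4me3 and 78 H3K9me3 tags. Duxf3, LOC100504180 and Gm52481, with 923, 785 and 728 H3K9me3 tags, belong to regions of near copies. For some of the 20 the start is not in RefSeq's promoter table, so either gene end counted as a start. At Anxa3, among these, the pair of 84 H3K4me3 and 166 H3K9me3 tags lay at 1 end. An H3K4me3 peak of 163 tags that overlapped no H3K9me3 peak lay at the other.

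Of genes with H3K4me3 and no H3K9me3, Irs2, an adaptor of insulin signalling, had the strongest peak, with 1149 tags. It was followed by Pdgfa, a growth factor, with 1086, and Map3k11, a kinase of the JNK pathway, with 995. Dnmt3a, a DNA methyltransferase, had 956. Of genes with separate marks, Sfi1, a centriole protein, had the most H3K9me3, 4500 tags in 5 peaks, beside an H3K4me3 peak of 289 tags at its start. Ahnak2 had 813 H3K4me3 tags at its start and 1 H3K9me3 peak of 1148 tags inside the gene. Fyb, an adaptor of immune receptor signalling, had 128 H3K4me3 tags at its start and 820 H3K9me3 tags. These were separate from the start peak only, since 697 of the 820 lay in 1 H3K9me3 peak that overlapped another H3K4me3 peak.

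The genes of the marks' own enzymes mostly had H3K4me3, and H3K9me3 beside it at some. Of 20 genes of H3K4 methylation and its removal 12 had H3K4me3 only and 6 overlapping marks (30%, against 15.0% of all genes), among them Kmt2d, an H3K4 methyltransferase, with 870 and 35 tags. Of 26 genes of H3K9 methylation 15 had H3K4me3 only, 8 overlapping (30.8%) and 3 separate marks. Trim28, the corepressor that recruits SETDB1, had 500 H3K4me3 tags and no H3K9me3. Tasor, of the silencing complex HUSH, had 235 H3K4me3 tags and 62 H3K9me3 tags in 2 peaks.

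Among the SUN domain genes, whose products tie the nuclear lamina to the cytoskeleton, Sun1 had 259 H3K4me3 tags at its start and 12 H3K9me3 tags, and Sun2 299 and 0. Spag4 had 254 and 0, and Sun3 76 and 0. Sun5, a gene of sperm, had no H3K4me3 at its start, an H3K9me3 peak of 67 tags and an H3K4me3 peak of 59 tags elsewhere in the gene. A peak at a gene start does not show whether an exon is deleted, so these values do not check the genotype. Lmna and Lmnb1, which encode lamins, had 539 and 537 H3K4me3 tags and no H3K9me3.

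The microRNA hairpins of RefSeq's table were mostly outside both marks. Of 1005 hairpins, 135 lay under an H3K4me3 peak only, 13 under both marks and 1 under H3K9me3 only. Of these, 3 show the kinds of value, with bases 2 to 8 of the mature arm, the seed, in capitals. Mirlet7e, a member of the let-7 family, lay under peaks of 812 H3K4me3 and 21 H3K9me3 tags, and Mir26b and Mir22 under H3K4me3 peaks of 571 and 478 tags with no H3K9me3. These hairpins lie near the starts of host genes, and a peak over one need not belong to it.
mmu-let-7e-5p: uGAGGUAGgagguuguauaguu
mmu-miR-26b-5p: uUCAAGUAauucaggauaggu
mmu-miR-22-3p: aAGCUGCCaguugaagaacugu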

How the data were processed

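ChIP-seq of H3K4me3 and H3K9me3 in Sun-/- macrophages gave 1 peak list per mark, from 1 library each. CASAVA 1.4, Bowtie 0.12.8, MACS 1.4.2, DiffBind and the build mm10 are named, per the submitters' processing notes, and their order is not given in the sources used here. The authors called peaks with MACS 1.4.2 in each library without a control, keeping 1 tag at a position and p-values to 1e-05, per the file headers. The deposited columns are the count of tags in each peak, a score (log10 of the p-value times −10), the fold over the local background, and, as other columns, positions, widths and summits in bp. All values of a peak are the authors' own. Totals were 31391199 tags for H3K4me3 and 32859785 for H3K9me3.

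Peaks were overlapped (1 bp or more) and joined to 21883 protein-coding genes of RefSeq (GRCm38.p6) with Python 3.11.15, pandas 2.3.3 and scipy 1.17.1. A gene start was any start in RefSeq's promoter table or the gene's own 5′ end (17491 genes), or either end where the table has no entry (4392 genes). A mark was at a start within 1000 bp and in a gene within 1000 bp of its span. Densities were tags per kb and per 1000000 filtered tags. Overlap and classes were tested on simulated data. Alternatives were other overlap rules, stricter peaks, other windows and peak widths. No count model was fitted, since each mark had 1 library. The members, the 32 gene lists and the rules were chosen with earlier results of these data known. Named genes were the 20 overlapping pairs at starts with the highest H3K9me3 score, the leading 10 of each class by tags or peaks, up to 4 genes per list and class, the SUN domain genes, and, chosen after their values were seen, the extreme members by ratio in the lists of imprinted, germline and Hox genes, Myd88 and the printed promoters.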

Additional observations from a re-analysis of the deposited data

How the results depend on the processing

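The share of H3K9me3 peaks on H3K4me3 depended most on the peaks kept. With scores of 100 or higher for both marks it was 50.9%, and 8.72% of H3K4me3 peaks overlapped. With that limit for H3K9me3 alone the shares were 68.4% and 6.91%, with at least 20 tags 52.0% and 12.3%, with the 10000 highest scores of each list 23.3% and 21.6%, and with a gap of up to 1000 bp 36.0% and 20.7%. Without H3K9me3 peaks of score 400 or more, a choice made after seeing the data, 18.3% of H3K4me3 peaks overlapped. With a score of at least 100, 1442 genes had H3K4me3 at the start and H3K9me3, 936 both marks at the start and 293 H3K9me3 without H3K4me3 at the start, against 5252, 3186 and 933. With at least 20 tags these were 2976, 1854 and 449. The fold between H3K9me3 peaks per Mb inside H3K4me3 peaks and beyond 100000 bp was 56.5, and 151 with a score of at least 100. As tags per peak, chosen after seeing the data, the median ratio of H3K9me3 to H3K4me3 was 0.0770 at gene starts and 0.668 elsewhere, the latter now below 1. Of the 17369 H3K9me3 peaks, 7512 scored below 60, and the effect of depth on them was not tested. Windows of 500 and 2500 bp and either gene end moved none of the 4 counts over all genes by over 1.5 times. For lists, run at 2500 bp alone of these, some small counts moved more: olfactory receptor genes with H3K9me3 only from 7 to 15 and with overlapping marks from 2 to 4, protocadherins with overlapping marks from 1 to 3, and Hox genes with H3K9me3 only from 3 to 1. No paired analysis was possible because each mark had 1 library and the labels carry no replicate numbers.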
